A study of Mus musculus with 18 samples.

Results

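The genes described are those that copy DNA and those that divide the cell, measured in mouse embryoid bodies over 3 days of differentiation. Members were chosen by name alone. A gene probe belonged when its symbol in the array annotation began with Mcm, Orc, Rfc, Prim, Pola, Pold, Pole, Cdc, Cdk with a number, Ccna, Ccnb, Ccne, Aurk, Plk, Bub or Cenp, or was Pcna or Birc5. The rule found 46 genes of the 5447 named on the array, on 68 of 15247 gene probes, and the probe with the highest mean intensity stood for each gene. By role, 20 act in DNA replication, 6 are cyclins, kinases or phosphatases of the G1 to S step, and 11 act in mitosis. The other 9 share a prefix but have other roles, such as Cdc42, a small GTPase that organises the actin skeleton. No gene probe carried an Aurk or Pola symbol, and 24 further genes that meet the rule only under their current symbol were kept apart.

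The cells were i-Mixl1 embryonic stem cells, a mouse line named after the homeobox gene Mixl1, and all groups came from that line. Doxycycline (DOX) at 0.1 ug/ml was given from 1 day after plating or was left out, and embryoid bodies were taken at day 2, 3 or 4. Each of the 6 groups held 3 biological replicates. A DOX sample and its control of that day shared 1 of 9 two-colour cDNA arrays. Every result is the red channel over the green channel. The deposited value table places DOX in the red channel, whereas the dye labels (Cy3 for DOX, Cy5 for control) place it in the green, so a ratio above 0 on the log2 scale means higher with DOX by the table and lower with DOX by the dye labels. All 9 arrays ran the same way, so dye and treatment cannot be told apart in the ratios of a single day. A constant dye effect cancels when the ratios of 2 days are subtracted. No gene probe on the array carried the Mixl1 symbol, so the induction itself was not analysed here.

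Before a cell copies its genome, the origin recognition complex (Orc proteins) and Cdc6 load the Mcm helicase on DNA in G1, and cyclin E with Cdk2 and the Cdc45 protein help to fire the origins. Primase then starts the new strands, the polymerases delta and epsilon extend them, and the sliding clamp Pcna, loaded by replication factor C, holds the polymerase on DNA. In mitosis, cyclin B with Cdk1 drives entry, the centromere proteins and the Bub checkpoint govern chromosome attachment, and Cdc20 activates the ubiquitin ligase that ends it. Mouse embryonic stem cells are known for a short G1 phase and for cyclin E that varies little over the cycle.

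The RefSeq promoter table (build GRCm38.p6) gives 250 bases before to 50 after each gene start. It held 38 of the 46 members, and Mcm4, Prim2, Rfc2, Pole, Ccna2, Ccne2, Cdc25c and Cdk5 were not matched. On both strands, 3 motifs were searched and overlapping matches were each counted. The E2F motif was read as TTTCCCGC, TTTCGCGC, TTTGCCGC or TTTGGCGC, the CHR (cell cycle genes homology region) as TTTGAA, and the CCAAT box as CCAAT. An E2F match lay in 8 of 22 windows of replication genes (36.4%) and in 1 of 11 windows of mitosis genes (9.09%), against 2.26% of all 32851 windows. The CHR letters lay in 3 of 22 replication windows (13.6%) and in 8 of 11 mitosis windows (72.7%), against 17.9% of all windows. CCAAT lay in 14 of 22 (63.6%) and 10 of 11 (90.9%), against 37.4% of all. A match is a description of the letters and not a shown binding site.

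Promoters are given for 5 members whose ratios passed the test, 3 that act up to or in S phase and 2 of mitosis, with each matched motif in capitals. The Ccne1 window (chr7:38107441-38107740 on the minus strand) held none of the searched letters, Mcm6 (chr1:128359656-128359955 on the minus strand) held 3 E2F and 2 CCAAT matches, and Pold2 (chr11:5878207-5878506 on the minus strand) held 3 CCAAT matches. The Bub1b window (chr2:118597961-118598260 on the plus strand) held 1 CHR and 1 CCAAT match, and the Cenpa window (chr5:30666636-30666935 on the plus strand) held 1 CHR and 2 CCAAT matches.
Ccne1: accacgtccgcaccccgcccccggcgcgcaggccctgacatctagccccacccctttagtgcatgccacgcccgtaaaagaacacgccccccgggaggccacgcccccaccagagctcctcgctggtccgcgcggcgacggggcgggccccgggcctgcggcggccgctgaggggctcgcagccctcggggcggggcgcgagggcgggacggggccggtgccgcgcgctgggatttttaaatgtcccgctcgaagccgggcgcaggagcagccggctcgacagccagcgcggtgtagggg
Mcm6: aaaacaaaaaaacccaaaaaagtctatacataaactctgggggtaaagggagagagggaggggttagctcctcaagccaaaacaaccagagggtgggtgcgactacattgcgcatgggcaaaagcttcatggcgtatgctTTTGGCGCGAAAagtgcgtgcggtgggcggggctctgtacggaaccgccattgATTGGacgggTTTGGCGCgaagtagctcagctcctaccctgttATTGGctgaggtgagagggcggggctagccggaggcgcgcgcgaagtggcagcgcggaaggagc
Pold2: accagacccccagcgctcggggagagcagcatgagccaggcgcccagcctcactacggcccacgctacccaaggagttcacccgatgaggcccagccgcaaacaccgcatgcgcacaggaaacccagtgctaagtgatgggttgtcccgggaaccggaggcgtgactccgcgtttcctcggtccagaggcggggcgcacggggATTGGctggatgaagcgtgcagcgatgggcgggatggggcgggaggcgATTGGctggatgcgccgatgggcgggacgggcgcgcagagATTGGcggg
Bub1b: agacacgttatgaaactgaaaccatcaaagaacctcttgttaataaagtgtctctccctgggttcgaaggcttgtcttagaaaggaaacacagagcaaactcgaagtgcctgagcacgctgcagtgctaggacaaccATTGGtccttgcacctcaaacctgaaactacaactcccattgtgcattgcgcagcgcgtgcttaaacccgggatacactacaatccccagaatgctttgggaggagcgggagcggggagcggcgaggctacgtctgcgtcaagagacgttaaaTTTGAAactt
Cenpa: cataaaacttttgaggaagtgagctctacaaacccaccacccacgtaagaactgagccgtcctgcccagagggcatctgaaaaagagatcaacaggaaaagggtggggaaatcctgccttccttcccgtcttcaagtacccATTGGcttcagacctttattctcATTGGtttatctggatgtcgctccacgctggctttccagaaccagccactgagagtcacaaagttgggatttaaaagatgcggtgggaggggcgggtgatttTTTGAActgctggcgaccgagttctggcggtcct

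Intensities are given after background modelling and normalization, on a linear scale, in the order of replicates 1, 2 and 3. Before these steps, the median deposited intensity per array ran from 209 to 466 in red and from 252 to 491 in green. Per array, 54.3% to 65.6% of gene probes in red and 62.0% to 70.1% in green lay well above background. The spread of a member's ratio between arrays of a day was small, with a median SD of 0.13 on the log2 scale (0.15 over all genes). The spread of its level was wider, 0.33 in either channel (0.31 over all genes). The p-values below are from limma's moderated test over all gene probes, Benjamini-Hochberg adjusted and two-sided, and passing means an adjusted p under 0.05. The number of arrays limits the precision.

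Most members had small ratios on every day. At day 2, 3 of the 46 members passed the test, all lower in red (6.52%), against 3.30% of all gene probes called (1.38% higher and 1.92% lower) and 3.41% of the brightest probes of all genes. At day 3, 3 members were higher and 6 lower in red (19.6%), against 20.1% of all gene probes (9.15% higher and 11.0% lower) and 22.6% of brightest probes. At day 4, 1 was higher and 6 lower (15.2%), against 17.4% (7.97% higher and 9.45% lower) and 20.5%. The day 3 and day 4 shares lie near the background, so these counts are no result about the members. At day 2 the calls were Prim2, Orc6 and Ccne1, and the Prim2 and Orc6 clones came from the same well of their culture plates (given below). The day 2 count is therefore not read as a result about the members. The median log2 ratio of the members was -0.018, -0.058 and -0.074 at days 2, 3 and 4, beside 0.00013, 0.0054 and 0.0084 over all genes. All but 1 member at day 2, and all but 2 at days 3 and 4, lay within 0.5 of 0 on that scale. The split at day 3 differed between settings. It was 2 higher and 7 lower after median centring, and 0 higher and 6 lower with the scaling of the deposited value table. Only 41 members were tested with that scaling. Cdc42ep1 and Prim2, both among the day 3 calls, were not tested there.

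By role, 2 of 20 replication genes were lower and none higher at day 2, 3 lower and 1 higher at day 3, and 4 lower and none higher at day 4, with median log2 ratios of -0.044, -0.081 and -0.11. Of the 11 mitosis genes, none passed at day 2 by limma (1 at an unadjusted p under 0.05, beside 2656 of 15246 gene probes). Of these genes, 1 was lower at day 3 and 1 at day 4, with medians of -0.014, -0.078 and -0.12 at days 2, 3 and 4. Among the 6 cyclin and kinase genes, the same gene, Ccne1, was lower on each day (16.7%). At days 2, 3 and 4 the replication share was 10%, 20% and 20% and the mitosis share 0%, 9.09% and 9.09%. Over all gene probes 3.30%, 20.1% and 17.4% were called. At days 3 and 4 the replication shares lie near the background and the mitosis shares below it. The counts of those days are no result about the roles. The replication calls of day 2, Prim2 and Orc6, were clones of the same plate well (E06), where 30.2% of gene probes were called lower that day. The part of the well was not tested, so the day 2 share is not read as a result about the role. Ratios below 0 were counted for 25, 28 and 31 of the 46 members at days 2, 3 and 4. The median ratios over all genes lay near 0 on these days (0.00013, 0.0054 and 0.0084). The sign counts were not tested.

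**Figure D1:**
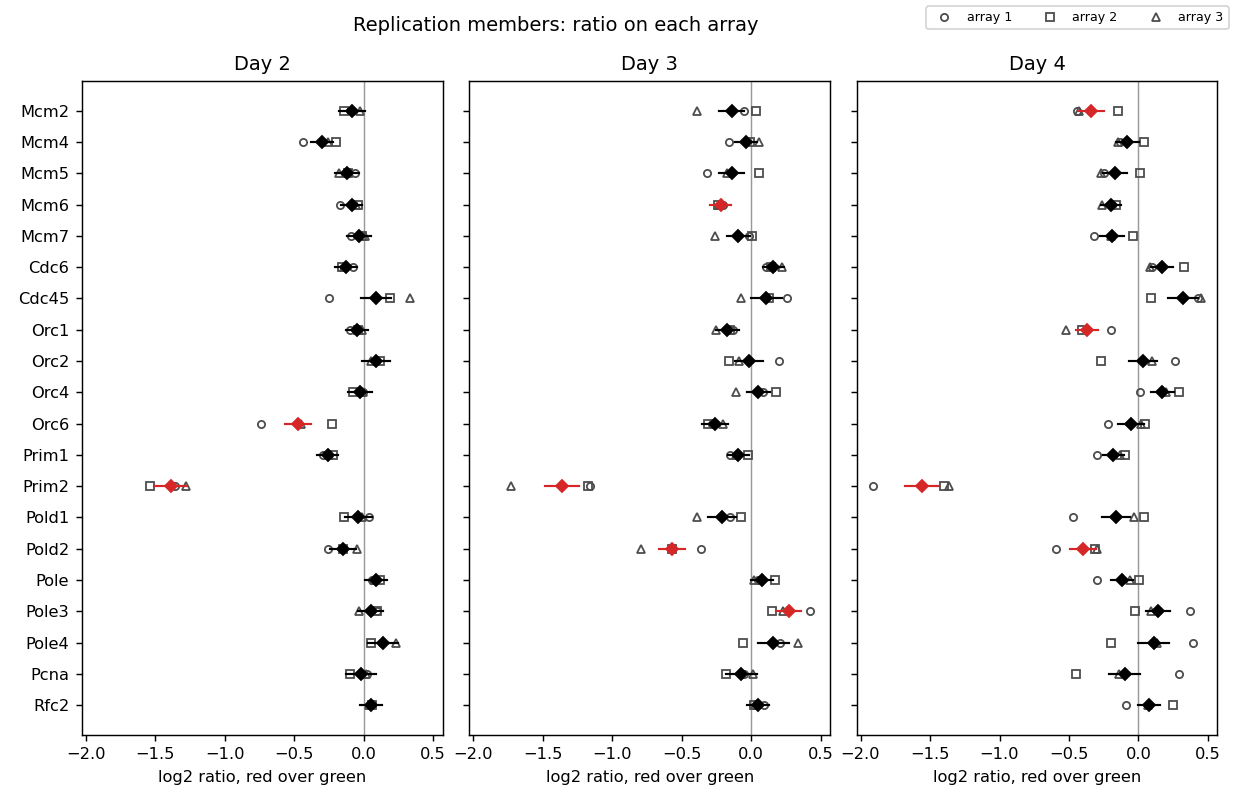
Log2 ratio of red over green for each replication gene at days 2, 3 and 4. Open markers are arrays 1 to 3 (circle, square, triangle), diamonds the fitted mean with a bar of 1 SE, red where the test was passed. Prim2 stands apart below -1 on all 9 arrays, and nearly all other genes lie within 0.5 of 0.

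The Mcm helicase subunits had mean ratios below 0 on each day, and 2 of these means passed. Mcm2, Mcm5, Mcm6 and Mcm7 were all below 0 on each day, from -0.12 to -0.033 at day 2, from -0.22 to -0.091 at day 3 and from -0.34 to -0.17 at day 4, and 1 of the 4 passed at day 3 and 1 at day 4. Mcm2 had intensities of 3944, 6091 and 5953 in red and 5334, 6779.5 and 8039 in green at day 4, which overlap, and log2 ratios of -0.44, -0.15 and -0.43. Red was the lower channel on all 3 arrays, by -0.34 ± 0.092 (SE, adjusted p = 0.0185). Leaving out replicate 1 or 3 ended the call (log2 -0.30 to -0.29, adjusted p = 0.128 to 0.139), and so did plain background subtraction. On the earlier days the Mcm2 ratios were -0.083, -0.14 and -0.025 at day 2 and -0.053, 0.038 and -0.39 at day 3.

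Mcm6 passed at day 3, where it had 10786, 7792 and 9740.3 in red and 12366, 9187 and 11454 in green, ratios of -0.20, -0.24 and -0.23 and a mean of -0.22 ± 0.073 (SE, adjusted p = 0.0432). It was lower in red on all 9 arrays, with ratios of -0.17, -0.043 and -0.054 at day 2 and -0.19, -0.16 and -0.26 at day 4, and the intensities of the channels overlapped on each day. Without replicate 1, 2 or 3 it did not pass at day 3 (log2 -0.24 to -0.22, adjusted p = 0.105 to 0.207), nor in a fit to day 3 alone (adjusted p = 0.133). Mcm7 ratios were -0.091, -0.016 and 0.0081 (day 2), -0.018, 0.0062 and -0.26 (day 3) and -0.32, -0.038 and -0.20 (day 4). Mcm5, whose clone is marked Questionable in the array's PCR check, had -0.065, -0.11 and -0.18 (day 2), -0.32, 0.057 and -0.17 (day 3) and -0.25, 0.0094 and -0.27 (day 4), and neither gene passed on any day. Each of Mcm7 and Mcm5 was below 0 on 7 of the 9 arrays. The Mcm4 clone, also Questionable, was near background on every day in both channels, with 69.4 to 96.1 in red and 78.5 to 104 in green, and its ratios were -0.44, -0.20 and -0.26 (day 2), -0.16, -0.0071 and 0.055 (day 3) and -0.13, 0.039 and -0.15 (day 4).

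Among the genes that load and fire the helicase, Orc6 and Orc1 passed on 1 day each. Orc6 had 228, 335 and 387 in red and 379, 393 and 529.8 in green at day 2, with ratios of -0.74, -0.23 and -0.45. The mean ratio was -0.47 ± 0.094 (SE, adjusted p = 0.00883), and red was lower on all 3 arrays although the channels' intensities overlapped. The call was lost without replicate 1 or 3 (log2 -0.48 to -0.34, adjusted p = 0.0575 to 0.165). In all, it was lost under 6 of 11 alternatives. Among them were plain background subtraction (adjusted p = 0.0997), the value table's scaling (adjusted p = 0.101) and a fit to day 2 alone (adjusted p = 0.0874). The later ratios of Orc6 were -0.28, -0.31 and -0.20 at day 3 and -0.22, 0.047 and 0.016 at day 4, with means of -0.26 ± 0.094 (SE, adjusted p = 0.0621) and -0.051 ± 0.094 (SE, adjusted p = 0.763).

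Orc1, the largest subunit of the complex, had 229.8, 313 and 279 in red and 264, 415 and 399 in green at day 4, and ratios of -0.20, -0.41 and -0.52. Red was lower on all 9 arrays, and the day 4 mean was -0.37 ± 0.08 (SE, adjusted p = 0.00425). This call did not hold without replicate 2 or 3 (log2 -0.36 to -0.30, adjusted p = 0.0726 to 0.115). Averaged with its dimmer probe, Orc1 had a day 4 ratio of -0.20 with an adjusted p of 0.054. Its ratios were -0.096, -0.038 and -0.014 at day 2 and -0.13, -0.15 and -0.25 at day 3. Orc2 had ratios of 0.09, 0.12 and 0.052 (day 2), 0.20, -0.16 and -0.085 (day 3) and 0.26, -0.27 and 0.10 (day 4). Orc4 had -0.003, -0.076 and -0.0032 (day 2), 0.083, 0.18 and -0.11 (day 3) and 0.0087, 0.29 and 0.20 (day 4), and the brightest probes of both genes had ratios on both sides of 0 and did not pass on any day.

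Cdc6, the loading factor, was below 0 on all 3 arrays of day 2 and above 0 on the other 6, at -0.08, -0.16 and -0.14 (day 2), 0.11, 0.14 and 0.22 (day 3) and 0.095, 0.33 and 0.086 (day 4). None of its days passed, with adjusted p of 0.417, 0.164 and 0.15. Cdc45 was dim, with 99.5 to 148 in red and 79.7 to 168 in green. It was not well above background in red at day 2 and in either channel at day 3, and its ratios were -0.25, 0.19 and 0.33 (day 2), 0.26, 0.13 and -0.073 (day 3) and 0.43, 0.088 and 0.45 (day 4).

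The primase subunits differed in size of ratio. Prim2, the large subunit, had 116, 77.6 and 98.0 in red and 299, 225 and 237 in green at day 2. On day 3 its values were 114, 96.7 and 69.7 in red against 256, 218 and 232 in green, and the day 4 values were 61.8, 68.4 and 64.1 in red against 233, 180.5 and 165 in green. The channels did not overlap on any day, and none of the 9 red values was well above background, so that only a bound can be given. Green was at least 2.62-fold higher than red at day 2, at least 2.43-fold at day 3 and at least 1.94-fold at day 4, with measured log2 ratios of -1.39 ± 0.12 (SE, adjusted p = 3.28e-06), -1.36 ± 0.12 (SE, adjusted p = 1.38e-06) and -1.56 ± 0.12 (SE, adjusted p = 4.29e-07). A bound sets the mean of the brighter channel against the lowest signal counted as above background, or the dim probe's own signal where that is higher. At day 2, the Prim2 call was lost with plain background subtraction (log2 -2.48, adjusted p = 0.198). At days 3 and 4, Prim2 was not tested with that subtraction. On no day was it tested with the value table's scaling, among probes above the median intensity or with more of the flagged spots left out. Those settings therefore cannot show whether its calls hold. In green, 7 of the 9 Prim2 values were well above background. Prim1, the catalytic subunit, was bright, at 3573 to 6604 in red and 3622 to 7087 in green. It was lower in red on all 9 arrays, with ratios of -0.29, -0.22 and -0.25 (day 2), -0.15, -0.02 and -0.11 (day 3) and -0.30, -0.1 and -0.13 (day 4), and did not pass (adjusted p of 0.0872, 0.414 and 0.126).

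The Prim2 and Orc6 clones both came from well E06 of their culture plates, and low red ratios were common among clones of that well. At day 2, 48 of the 159 gene probes of well E06 were called lower in red (30.2%), which ranked first of 96 wells together with well E07, that of the Cdc45 clone, against a median over wells of 0.629%. At day 3 the share in E06 was 32.7% (median over wells 10.1%) and at day 4 it was 35.2% (median 8.52%). The part of the well in the Prim2 and Orc6 ratios was not tested. Well E08, that of Pold2, had 0.629%, 19.5% and 16.4% at days 2, 3 and 4, above the median over wells at days 3 and 4, where it ranked 6 and 7 of 96. The share for B04, that of Ccne1, was 1.89%, 8.18% and 4.40%. The Cenpa well, B10, had 0.629%, 10.1% and 13.8%.

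**Figure D2:**
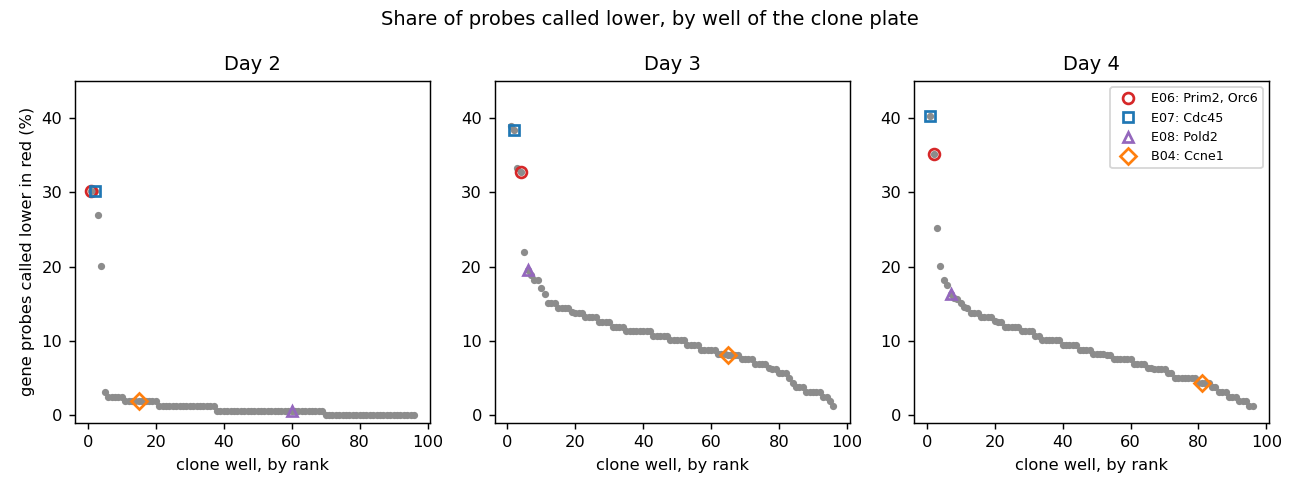
Percent of gene probes called lower in red for each of the 96 clone wells, by day. The wells of Prim2 and Orc6 (E06), Cdc45 (E07), Pold2 (E08) and Ccne1 (B04) are marked. At day 2, E06 and E07 are both at 30.2% and the median well at 0.629%.

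Of the polymerase subunits, Pold2, an accessory subunit of polymerase delta, had the clearest ratio. At day 3 it had 2666, 3038 and 3319.6 in red and 3416, 4497 and 5729 in green, with ratios of -0.36, -0.57 and -0.79. All red values lay below all green values, and the mean was -0.57 ± 0.094 (SE, adjusted p = 0.000529). It passed again at day 4 with 1727, 3163 and 3100.3 in red and 2597, 3915 and 3805 in green, where the channels overlapped. The day 4 ratios were -0.59, -0.31 and -0.30 and the mean -0.40 ± 0.094 (SE, adjusted p = 0.0083). It did not pass without replicate 1 or 2 (log2 -0.44 to -0.30, adjusted p = 0.0565 to 0.0622). At day 2 the mean was -0.15 ± 0.094 (SE, adjusted p = 0.42), so Pold2 was below 0 on all 9 arrays.

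Pole3, a histone-fold subunit of polymerase epsilon, was the only one of the 20 replication members called higher in red. At day 3 it had 2148, 745 and 1839.8 in red and 1610.4, 672 and 1564 in green, which overlap widely, with ratios of 0.42, 0.15 and 0.23 and a mean of 0.27 ± 0.089 (SE, adjusted p = 0.0459). Leaving out replicate 1, 2 or 3 ended the call (log2 0.19 to 0.32, adjusted p = 0.104 to 0.196). In all, the call was lost under 8 of 12 alternatives, among them median centring (log2 0.21, adjusted p = 0.143), plain background subtraction (adjusted p = 0.067), the scaling of the value table (adjusted p = 0.055) and a fit to day 3 alone (adjusted p = 0.0974). The catalytic subunits Pold1 and Pole did not pass on any day, with mean ratios of -0.038, -0.21 and -0.16 for Pold1 and 0.086, 0.077 and -0.12 for Pole. Pole4, the partner of Pole3, had 0.14, 0.16 and 0.11, also without passing.

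Neither Pcna, the sliding clamp, nor Rfc2 passed on any day. Pcna had ratios of 0.026, -0.10 and 0.015 (day 2), -0.05, -0.18 and 0.013 (day 3) and 0.29, -0.45 and -0.14 (day 4), with intensities of 3234 to 12767 in red and 3655 to 10426 in green. Its highest value in both channels, on day 4 array 1, came with the one ratio clearly above 0. Rfc2, a loader subunit, had mean ratios of 0.05 ± 0.08, 0.049 ± 0.08 and 0.077 ± 0.08 (SE) at days 2, 3 and 4.

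Ccne1, cyclin E1, was the one member of the G1 to S group that passed, and it did so on each day. It had 4631, 3829.9 and 3211 in red and 5955, 4559 and 3977 in green at day 2, and 2988, 3029 and 1972 against 3918, 3942 and 2424 at day 3. At day 4 it had 2260.0, 1579 and 1766 in red and 2899, 1881 and 2568 in green. Red was lower on all 9 arrays. Intensities of the channels overlapped at days 2 and 3, while at day 4 all but the highest red value lay below all green values. The ratios were -0.36, -0.25 and -0.31 (day 2), -0.39, -0.38 and -0.30 (day 3) and -0.36, -0.25 and -0.54 (day 4). The means were -0.31 ± 0.079 (SE, adjusted p = 0.0437) at day 2, -0.36 ± 0.079 (SE, adjusted p = 0.00516) at day 3 and -0.38 ± 0.079 (SE, adjusted p = 0.00314) at day 4. At day 2, it did not pass without replicate 1, 2 or 3 (log2 -0.34 to -0.28, adjusted p = 0.163 to 0.307); at day 3, it did not pass without replicate 2 (log2 -0.34, adjusted p = 0.066); and at day 4, it did not pass without replicate 3 (log2 -0.31, adjusted p = 0.107). The day 2 call was lost under 8 of 12 alternatives, among them median centring (adjusted p = 0.066), a fit to day 2 alone (adjusted p = 0.0731), plain background subtraction (adjusted p = 0.101) and the scaling of the value table (adjusted p = 0.1).

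The other cyclins and kinases of this step did not pass. Ccna2, cyclin A2, had ratios of 0.055, 0.055 and 0.11 (day 2), 0.067, -0.088 and 0.18 (day 3) and 0.1, -0.048 and 0.27 (day 4), and Cdk2, its kinase partner, -0.074, 0.077 and 0.083 (day 2), 0.021, 0.084 and 0.059 (day 3) and -0.047, -0.12 and -0.037 (day 4), with intensities of 183 to 277 in red and 188 to 273 in green. Cdk4, the G1 kinase partner of D cyclins, had 0.11, -0.019 and 0.079 (day 2), 0.32, 0.33 and 0.0053 (day 3) and -0.16, 0.41 and 0.022 (day 4). Each of these 3 genes had ratios of both signs on at least 1 day. Cdc25a, a phosphatase that activates Cdk2, had mean ratios of -0.10, 0.12 and -0.15. The Ccne2 clone, marked No Product in the PCR check, was also near background throughout, at 69.1 to 121 in red and 75.2 to 98.4 in green, with ratios of 0.068, 0.55 and 0.38 (day 2), 0.075, -0.20 and -0.16 (day 3) and -0.14, -0.059 and 0.15 (day 4).

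The mitosis genes gave 2 calls in 3 days, both lower in red. That is 9.09% of them at day 3 and at day 4, against 20.1% and 17.4% of all gene probes. Cenpa, the histone H3 variant of centromeres, had 2852, 5274 and 4673 in red and 3929.7, 7275 and 6843 in green at day 4, where red was lower on all 3 arrays by -0.46, -0.46 and -0.55. The mean was -0.49 ± 0.079 (SE, adjusted p = 0.000431), and the channels' intensities overlapped since the arrays also differed in level. Its ratios were 0.10, 0.042 and 0.17 at day 2 and -0.032, -0.27 and -0.30 at day 3, with means of 0.11 ± 0.079 (SE, adjusted p = 0.512) and -0.20 ± 0.079 (SE, adjusted p = 0.0843). Cenph, another centromere protein, stayed above 0 on all 9 arrays, at 0.16, 0.099 and 0.028 (day 2), 0.054, 0.04 and 0.22 (day 3) and 0.15, 0.18 and 0.046 (day 4), without passing.

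Bub1b, the checkpoint kinase-like protein BubR1, passed at day 3 with 2942, 2102 and 2388 in red and 3748, 2329 and 2871 in green, which overlap. Its ratios there were -0.35, -0.15 and -0.27 and the mean -0.25 ± 0.079 (SE, adjusted p = 0.034). Without replicate 1, 2 or 3 it did not pass (log2 -0.31 to -0.21, adjusted p = 0.0837 to 0.173), nor in a fit to day 3 alone (adjusted p = 0.102). The Bub1b ratios were 0.0019, -0.014 and -0.031 at day 2 and -0.22, 0.032 and -0.17 at day 4. Bub3, its partner, had -0.041, -0.11 and -0.046 (day 2), -0.37, -0.16 and 0.10 (day 3) and 0.10, 0.10 and -0.31 (day 4), with both signs at days 3 and 4.

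**Figure D3:**
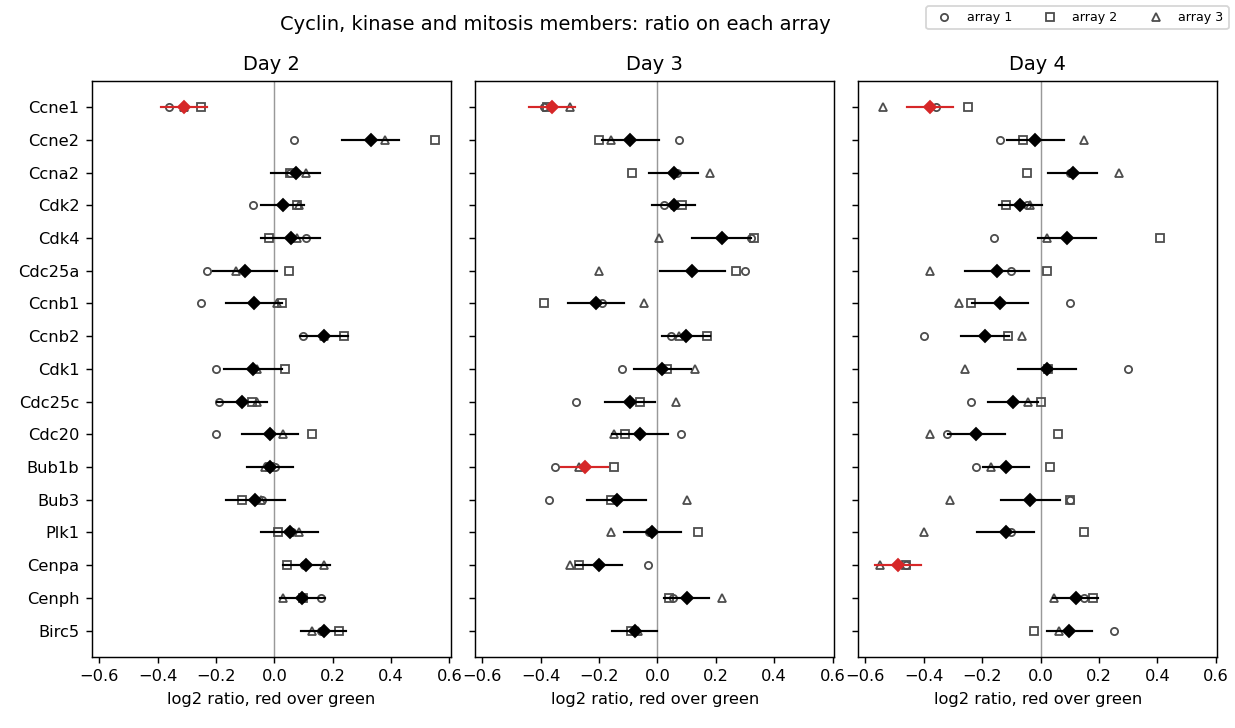
Log2 ratio of red over green for each gene of the G1 to S group and each mitosis gene at days 2, 3 and 4. Markers are as in the plot of replication genes. Among mitosis genes Cenpa at day 4 and Bub1b at day 3 passed, both below 0. Ccne1 of the G1 to S group passed on each day, also below 0.

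None of the drivers of mitotic entry passed on any day. Ccnb1 had ratios of -0.25, 0.025 and 0.01 (day 2), -0.19, -0.39 and -0.047 (day 3) and 0.10, -0.24 and -0.28 (day 4), and Ccnb2 0.099, 0.24 and 0.17 (day 2), 0.046, 0.17 and 0.075 (day 3) and -0.40, -0.11 and -0.063 (day 4). Plk1, a kinase of mitotic entry and spindle assembly, had 0.062, 0.012 and 0.084 (day 2), -0.03, 0.14 and -0.16 (day 3) and -0.10, 0.15 and -0.40 (day 4). Ccnb1 and Plk1 had both signs within a day, and Ccnb2 was above 0 on the arrays of days 2 and 3 and below 0 on those of day 4. Cdc20, the activator of the anaphase-promoting complex, had -0.20, 0.13 and 0.03 (day 2), 0.081, -0.11 and -0.15 (day 3) and -0.32, 0.058 and -0.38 (day 4). Birc5 (survivin), a subunit of the chromosomal passenger complex, had 0.16, 0.22 and 0.13 (day 2), -0.076, -0.09 and -0.068 (day 3) and 0.25, -0.021 and 0.063 (day 4), with all arrays above 0 at day 2, all below at day 3 and both signs at day 4. Cdc25c, the phosphatase that activates Cdk1, had mean ratios of -0.11, -0.094 and -0.094.

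Cdk1, the mitotic kinase, had mean ratios near 0 and levels that were uneven between arrays. It had 2007, 2536 and 2464 in red and 2306, 2474 and 2566 in green at day 2. On day 3 it had 2498, 2444 and 173 in red and 2709.8, 2389 and 157 in green, and the day 4 values were 102, 2112 and 2295 in red and 83.2, 2074 and 2756 in green. Both channels were low together on array 3 of day 3 and array 1 of day 4, and the other 7 arrays lay close to each other. The SD of its log2 level between arrays of a day was 1.96 in red and 2.10 in green, the highest of the members, whereas its ratios were -0.20, 0.036 and -0.058 (day 2), -0.12, 0.033 and 0.13 (day 3) and 0.30, 0.026 and -0.26 (day 4). What lowered both channels on those arrays was not tested.

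Among the 9 genes of other roles, Cdc42ep1, Cdc42ep5 and Cdk5 passed on at least 1 day. The share was 33.3% at day 3 and 11.1% at day 4, against 20.1% and 17.4% of all gene probes. Cdc42ep1, which binds active Cdc42 and shapes the septin and actin skeleton, had 240.4, 333 and 374 in red and 193, 261 and 329.9 in green at day 3, with a mean ratio of 0.28 ± 0.083 (SE, adjusted p = 0.0257). The call was lost without replicate 1 or 2 (log2 0.25 to 0.27, adjusted p = 0.0904 to 0.2). It was also lost in a fit to day 3 alone (adjusted p = 0.0735) and with more of the flagged spots left out (adjusted p = 0.0632). At day 4 it had 421, 606 and 581 in red and 312, 383 and 350.1 in green, without overlap, and ratios of 0.43, 0.66 and 0.73. The day 4 mean was 0.61 ± 0.083 (SE, adjusted p = 9.2e-05). It was not well above background in red at days 2 and 3. The day 2 ratios were -0.096, -0.11 and -0.26, with a mean of -0.16 ± 0.083 (SE, adjusted p = 0.339), which did not pass.

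Cdc42ep5 had 653, 1224 and 648 in red and 454, 823 and 604 in green at day 3, ratios of 0.52, 0.57 and 0.10 and a mean of 0.40 ± 0.12 (SE, adjusted p = 0.0317). This call did not hold without replicate 1 or 2 (log2 0.31 to 0.34, adjusted p = 0.122 to 0.191). It was also lost with plain background subtraction (adjusted p = 0.082) and with the value table's scaling (adjusted p = 0.0822). Cdk5, a kinase best known from neurons, had 809, 1332 and 1233 in red and 992, 1720.4 and 1518 in green at day 3, with ratios of -0.29, -0.37 and -0.30. It was lower in red on all 3 arrays, by -0.32 ± 0.078 (SE, adjusted p = 0.00931). It did not pass without replicate 2 or 3 (log2 -0.33 to -0.30, adjusted p = 0.0525 to 0.102). The other 6 were Cdc37 (a chaperone partner for kinases), Cdc42, Cdc5l (a splicing factor), Cdk9 (a kinase of transcription elongation), Cdk11b and Mcm3ap (an mRNA export protein). Mean ratios of Cdc37, Cdc42, Cdc5l, Cdk9, Cdk11b and Mcm3ap lay between -0.24 (Cdk9 at day 4) and 0.15 (Cdc37 at day 4), and none of these 6 passed.

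A separate loess curve for each print block lowered the members' median SE to 0.065, against 0.085 with 1 curve per array, and called more of them. It called 5 members at day 2, against 3.82% of all gene probes, and 10 at day 3, against 22.8%. At day 4 it called 14, 12 of them lower and 2 higher, against 18.7%. The day 4 calls gained were Mcm5 (-0.20), Mcm7 (-0.27), Pole (-0.21), Ccnb2 (-0.26), Cdc20 (-0.27) and Plk1 (-0.21), all lower in red, and Cdc45 (0.40), higher. At day 3, Mcm5 (-0.20) and Pold1 (-0.26) were gained and Mcm6 was lost (-0.12, adjusted p = 0.115). Ccne2 (0.40) and Cdc45 (0.35) were gained at day 2.

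The change of the ratio between days does not depend on a constant dye effect. By limma, 0 of 46 members passed from day 2 to day 3, against 3.21% of all gene probes. An unadjusted p under 0.05 was reached by 9 of the 46, beside 2533 of 15246 gene probes. From day 3 to day 4, 0 of 46 passed against 6.58%. An unadjusted p under 0.05 was reached by 4 of the 46, beside 2652 of 15243 gene probes. From day 2 to day 4, 1 rose and 1 fell (4.35%), against 6.56%. Cdc42ep1 rose by 0.77 ± 0.12 (SE, adjusted p = 0.000605), with ratios above 0 on all arrays of day 4 and below 0 on all of day 2. Cenpa changed by -0.60 ± 0.11 (SE, adjusted p = 0.0032), with all arrays of day 4 below 0 and all of day 2 above it. Leaving out replicate 2 or 3 ended the call (log2 -0.65 to -0.54, adjusted p = 0.0541 to 0.0807). Differences of Orc6 (0.42 ± 0.13 SE, adjusted p = 0.075) and Ccnb2 (-0.36 ± 0.12 SE, adjusted p = 0.0843) missed the threshold and passed with a curve per print block (0.50 for Orc6 and -0.45 for Ccnb2).

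Few members passed the test of level within a channel over the 3 days. In the red channel 0 of 46 members passed from day 2 to day 3 (1.06% of all gene probes) and 0 from day 3 to day 4 (1.78%). An unadjusted p under 0.05 was reached by 3 and 7 members, beside 1299 of 15246 and 1811 of 15243 gene probes. From day 2 to day 4 in red, 1 rose and 2 fell (6.52%), against 6.80%. In the green channel 0 passed from day 2 to day 3 (0.748%) and 0 from day 3 to day 4 (2.27%). An unadjusted p under 0.05 was reached there by 2 and 5 members, beside 1239 of 15246 and 1886 of 15243 gene probes. From day 2 to day 4 in green, 1 rose (2.17%, against 6.19%). The median change of the members from day 2 to day 4 was -0.15 in red and -0.089 in green on the log2 scale, beside -0.016 and -0.022 over all genes, and 33 members in red and 29 in green lay below 0. With whole embryoid bodies, fewer cells of a type and less RNA per cell cannot be told apart.

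Ccne1 changed by -1.06 ± 0.23 (SE, adjusted p = 0.0226) in red and by -0.98 ± 0.25 (SE, adjusted p = 0.0561) in green from day 2 to day 4. All day 4 values lay below all day 2 values in both channels, and only the red change passed. Without replicate 1, 2 or 3 it did not pass (log2 -1.16 to -0.95, adjusted p = 0.0799 to 0.183). Orc1 changed by -0.77 ± 0.2 (SE, adjusted p = 0.0493) in red, where no day 4 value reached the lowest of day 2, and by -0.44 ± 0.22 (SE, adjusted p = 0.361) in green. The red change of Orc1 passed under none of the 7 alternatives run (log2 -1.16 to -0.27, adjusted p = 0.0515 to 0.534), which include leaving out each replicate and the replicate number as a block (adjusted p = 0.0801). With the mean of both Orc1 probes it was -0.27, against -0.77 for the brighter probe.

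Cdc42ep1 rose in red by 1.52 ± 0.23 (SE, adjusted p = 0.00329). Since its day 2 red signal was not well above background, the rise is best given as at least 2.86-fold, and in green the change was 0.75 ± 0.21 (SE, adjusted p = 0.0764). For the red change, it did not pass without replicate 2 or 3 (log2 1.34 to 1.38, adjusted p = 0.0754 to 0.109). Cdc42ep5 had 921, 1020.3 and 1551 in green at day 4 and 507, 356 and 604 at day 2, a rise of 1.25 ± 0.29 (SE, adjusted p = 0.0386). The call was lost without replicate 1, 2 or 3 (log2 1.11 to 1.44, adjusted p = 0.0944 to 0.22). In red it had 903, 1663 and 1981 at day 4 and 539, 384 and 778 at day 2, also without overlap, and the change missed the threshold (adjusted p = 0.0536).

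**Figure D4:**
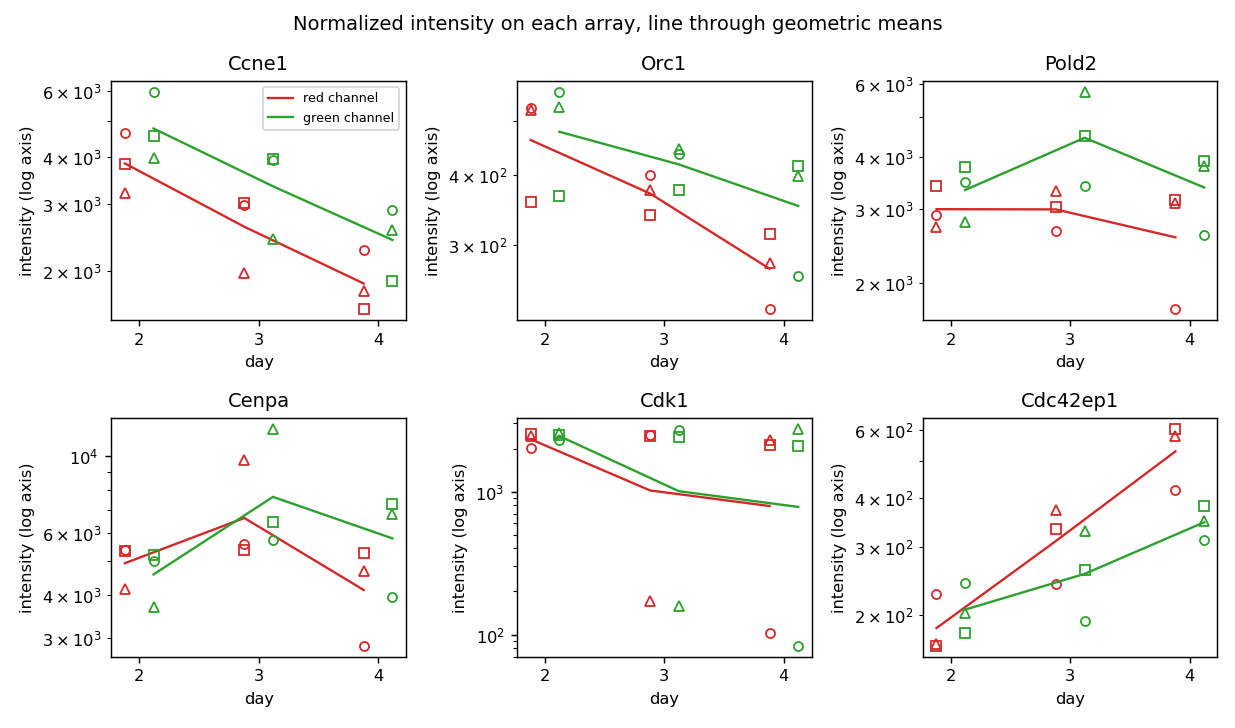
Normalised intensity on a log axis of Ccne1, Orc1, Pold2, Cenpa, Cdk1 and Cdc42ep1 at days 2, 3 and 4, with the red channel left of the green. Points are single arrays. Ccne1 declines in both channels, Cdc42ep1 climbs, and Cdk1 has 2 arrays on which both channels are low.

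Markers of other cell states moved over the same days. The 7 measured of 10 pluripotency markers (Dppa3, Dppa5a, Gdf3, Klf5, Pou5f1, Tdgf1 and Zfp42) summed to between 32363 and 34353 in red at day 2, between 23854 and 25273 at day 3 and between 6495 and 6819 at day 4. In green they summed to between 32186 and 32577, between 21756 and 24129 and between 10758 and 18460. From day 2 to day 4, 6 of the 7 fell in red and 4 of the 7 in green. The 3 measured of 5 blood markers (Gata1, Hba-x and Hbb-y) stood near background in both channels at day 2, and at day 4 summed to 737 to 1266 in red and 352 to 416 in green. Col1a2, 1 of 8 fibroblast markers, and Pecam1, 1 of 4 endothelial markers, were the only measured members of their lists, at 320.0 to 405 and 338 to 399 in red at day 4 and 255 to 392 and 383 to 436 at day 2. In green, Col1a2 had 267 to 313 at day 4 and 175 to 246 at day 2, and Pecam1 had 135 to 165 at day 4 and 359 to 375 at day 2. Their part in the levels of the members was not tested.

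Several members had more than 1 probe, and the probes did not always give the same ratio. The dimmer Cenpa probe repeated the day 4 value, with ratios of -0.29, -0.52 and -0.46 and a mean of -0.42 ± 0.077 (SE, adjusted p = 0.0013). The dimmer Bub1b probe also passed at day 3, with a mean of -0.35 ± 0.082 (SE, adjusted p = 0.00729).

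For Cdk4 the probes differed. The dimmer one had mean ratios of -0.40 ± 0.094 (SE, adjusted p = 0.0274) at day 2, -0.40 ± 0.094 (SE, adjusted p = 0.00753) at day 3 and -0.32 ± 0.094 (SE, adjusted p = 0.0296) at day 4, against 0.056, 0.22 and 0.091 for the brighter. From day 2 to day 4 its level changed by -1.71 ± 0.25 (SE, adjusted p = 0.00285) in red and -1.79 ± 0.22 (SE, adjusted p = 0.00179) in green, against 0.14 and 0.10 for the brighter probe. Which Cdk4 clone carries the gene's transcript was not tested. The dimmer Birc5 probe, too dim to stand well above background in both channels at day 2 and in red at day 3, passed at day 4 with 0.81 ± 0.11 (SE, adjusted p = 9.88e-05), against 0.099 for the brighter. The dimmer Orc1 probe, not well above background at days 2 and 3, had -0.027 ± 0.084 (SE, adjusted p = 0.865) at day 4, against -0.37. Of the further probes of Orc2, one passed at day 4 with 0.26 ± 0.083 (SE, adjusted p = 0.0449), against 0.03 for the brightest. These disagreements leave the gene-level ratio of Cdk4, Birc5, Orc1 and Orc2 uncertain.

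**Figure D5:**
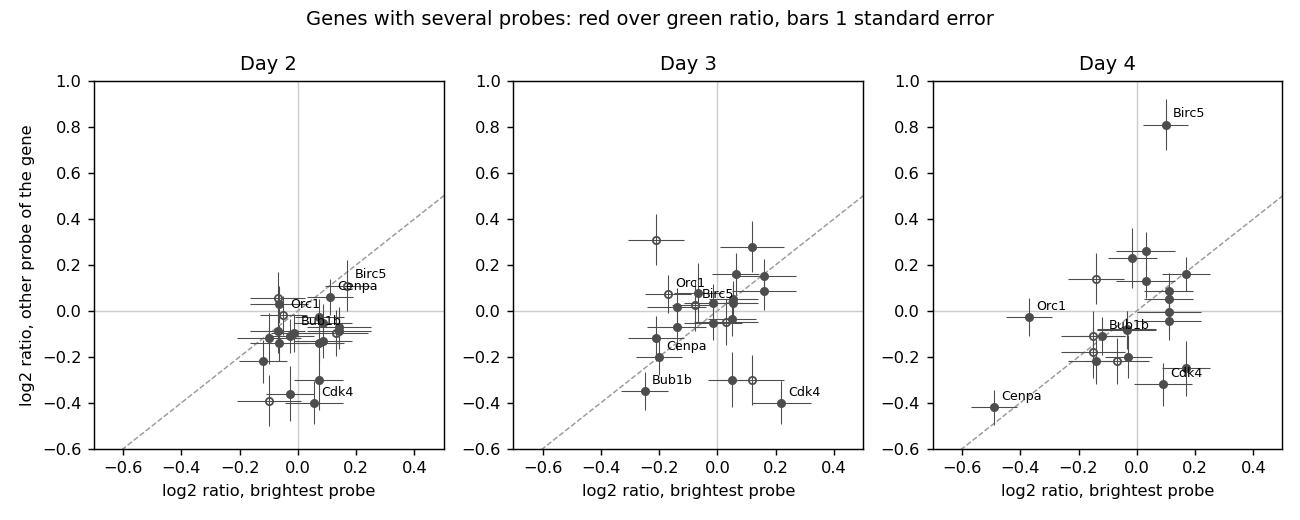
Log2 ratio of red over green of each further probe of a gene (vertical axis) against that of the gene's brightest probe (horizontal axis), at days 2, 3 and 4, with bars of 1 SE and a dashed line of equality. Open points are further probes not well above background in a channel that day. Cenpa and Bub1b lie near the line on the days of their calls, and Cdk4 lies below it on each day.

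Of the 24 genes listed under older names, none passed at day 2 by limma (5 at an unadjusted p under 0.05, beside 2656 of 15246 gene probes). At day 3, 1 was higher and 6 lower (29.2%, beside 20.1% of all gene probes). At day 4, 1 was higher and 4 lower (20.8%, beside 17.4%). Rfc1, the large subunit of the clamp loader, was higher at day 3 (0.33 ± 0.081 SE, adjusted p = 0.00936) and day 4 (0.56 ± 0.081 SE, adjusted p = 0.000148), though its clone is marked Multiple Bands. The Rfc1 day 3 call was lost with a curve per print block (log2 0.18, adjusted p = 0.0783), with median centring (log2 0.26, adjusted p = 0.0653) and with the mean of both Rfc1 probes (log2 0.14, adjusted p = 0.203). This call did not hold without replicate 2 or 3 (log2 0.28 to 0.31, adjusted p = 0.0963 to 0.101). At day 4 the mean of both probes was 0.30 (adjusted p = 0.014). Mcm10, which helps to activate the helicase, had a day 4 ratio of -0.27 ± 0.074 (SE, adjusted p = 0.0211). It did not pass without replicate 1, 2 or 3 (log2 -0.32 to -0.22, adjusted p = 0.0763 to 0.202). Cdca7 (-0.38 at day 3 and -0.51 at day 4) and Cdca5 (sororin, -0.22 and -0.27) were lower on both days, as was Cdk18 (-0.48 and -0.57). Plk3 (-0.38, its clone marked No Product), Cdk2ap1 (-0.29) and Cdk2ap2 (-0.25) were lower at day 3. Both Cdk18 calls and the Rfc1 call of day 4 held without any 1 replicate. In the well of the Rfc1 clone, B02, 17.6% and 11.9% of probes were called higher at days 3 and 4. Over all gene probes it was 9.15% and 7.97%. In the Plk3 well, F07, 22% were called lower at day 3 (rank 5 of 96), against 11.0% of all gene probes. The part of these wells in the ratios was not tested. Without replicate 2, the calls of Cdca7 (adjusted p = 0.128 at day 3 and 0.0988 at day 4) and Plk3 (adjusted p = 0.0837) were lost, and those of Cdca5, Cdk2ap1 and Cdk2ap2 were lost without each replicate in turn (adjusted p = 0.0519 to 0.327). From day 2 to day 4 the ratio rose for Rfc1 by 0.50 ± 0.11 (SE, adjusted p = 0.0127) and changed for Mcm10 by -0.43 ± 0.11 (SE, adjusted p = 0.0222), and neither kept its call without replicate 1, 2 or 3. The Rfc1 change was also lost with a curve per print block (log2 0.34, adjusted p = 0.0611) and with the mean of both probes (log2 0.31, adjusted p = 0.118).

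Other genes of DNA synthesis had few calls. Of 37 listed genes outside the rule, 29 were measured, and by limma 0 passed at day 2, 2 were lower at day 3 (6.90%) and 6 lower at day 4 (20.7%), with none higher, beside 3.30%, 20.1% and 17.4% of all gene probes. The day 3 share lies below the background and the day 4 share near it, so the counts are no result about the list. The day 4 calls included Lig1, the ligase of Okazaki fragments (-0.41 ± 0.076 SE, adjusted p = 0.00137), Dut, which removes dUTP (-0.50 ± 0.11 SE, adjusted p = 0.00429), Exo1, a repair exonuclease (-0.78 ± 0.15 SE, adjusted p = 0.0017), and Rrm2, a subunit of ribonucleotide reductase (-0.31 ± 0.088 SE, adjusted p = 0.0222). The Lig1 ratio also changed between day 2 and day 4, by -0.59 ± 0.11 (SE, adjusted p = 0.00292). Their median log2 ratio was -0.029, -0.014 and -0.071 at days 2, 3 and 4.

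Of 56 further mitosis genes, 35 were measured, with 0 called at day 2, 3 higher and 4 lower at day 3 (20.0%) and 2 higher and 3 lower at day 4 (14.3%), shares near the 20.1% and 17.4% of all gene probes. Zwint, a kinetochore protein, was lower in red at day 3 (-0.43 ± 0.072 SE, adjusted p = 0.000586) and higher at day 4 (0.61 ± 0.072 SE, adjusted p = 2.35e-05). The kinase Wee1, which restrains Cdk1, was lower at day 3 (-0.30) and day 4 (-0.30), and the condensin subunit Ncapd2 was lower at day 4 (-0.47). Mad2l1, a checkpoint protein, was higher at day 3 (0.27).

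The G1 regulators held single genes with large ratios. Of 29 listed genes 18 were measured, with 2 higher at day 2 (11.1%), 4 higher and 3 lower at day 3 (38.9%) and 2 higher and 3 lower at day 4 (27.8%), beside 3.30%, 20.1% and 17.4% of all gene probes. Ccnd2, cyclin D2, had 2.29 ± 0.12 (SE, adjusted p = 3.02e-08) at day 2 and -0.61 ± 0.12 (SE, adjusted p = 0.00284) at day 4, and Ccnd3 had 0.42 at day 4. Cdkn1c, the inhibitor p57, was higher at day 2 (0.59) and day 4 (0.60), and Trp53 was lower at day 4 (-0.50). Between day 2 and day 4 the Ccnd2 ratio changed by -2.90 ± 0.18 (SE, adjusted p = 9.8e-08).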

How the data were processed

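Expression was measured in 18 samples on 9 two-colour mouse cDNA arrays, 3 per day, after 1 linear round of RNA amplification and indirect Cy3 or Cy5 labelling (per the labels' protocols). Per the file headers, the authors deposited for each day the red and green intensity of every spot as median foreground minus background, linear and not normalized, with spot flags and, as a score, the signal-to-noise ratio. The deposited value table served for the channel assignment and for 1 alternative scaling.

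The limma package (version 3.58.1, R 4.3.3) was used. Spots with flags down to -75 and lower were dropped, normexp modelled the background with an offset of 50, and ratios were normalized by 1 loess curve per array (span 0.3, control spots without weight). All 9 log2 ratios went into 1 model with day as its only factor, which leaves 6 residual degrees of freedom and gives each day and each difference between days 1 shared estimate of spread. Levels over time used single-channel log2 values after Aquantile, 9 samples per channel. P-values were adjusted over all gene probes by Benjamini-Hochberg, two-sided. Signal-to-noise under 1.4 on all 3 arrays of a day counted as not well above background. Tables were assembled in Python 3.11.15 with pandas 2.3.3 and numpy 2.4.6, and the fit was tested on simulated data. The array is a block in the ratios: deviations of the 2 channels of an array correlated at 0.858 to 0.962. Equal replicate numbers on different days had no steady correlation (-0.375 to 0.517). It was highest for replicate 1 of days 3 and 4 (0.517 in red and 0.467 in green). The main tests of level over time used no replicate block. The 3 replicates are biological per the design text.

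Members and gene lists were chosen with earlier results of these data known. All members were accounted for, and array values were given for the Mcm, Prim, Orc, Ccna, Ccnb, Ccne, Plk and Bub families, Pcna, Birc5, Cdc20, Cdc6, Cdc45, Cdk1, Cdk2, Cdk4 and up to 5 members past the test per role, direction and comparison, with up to 4 genes per other list and comparison. The alternatives, given with their effect in the closing section, were plain background subtraction, a loess curve per print block, median centring, the value table's scaling, quantile normalization, bright probes alone, the mean of a gene's probes, a fit to 1 day, fits with or without the block, and each replicate left out.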

Additional observations from a re-analysis of the deposited data

Results flagged for a closer look

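For 4 genes the red over green ratio differed between day 4 and day 2 by the test of the difference itself. Cdc42ep1 differed by 0.77 ± 0.12 (SE, adjusted p = 0.000605), with ratios of 0.43, 0.66 and 0.73 on the day 4 arrays and -0.096, -0.11 and -0.26 on those of day 2, the day 2 red signal not being well above background. Cenpa differed by -0.60 ± 0.11 (adjusted p = 0.0032), with ratios of -0.46, -0.46 and -0.55 on the day 4 arrays and 0.10, 0.042 and 0.17 on those of day 2. Mcm10 differed by -0.43 ± 0.11 (SE, adjusted p = 0.0222), with -0.27, -0.36 and -0.17 on the day 4 arrays and 0.11, 0.17 and 0.20 on those of day 2. Rfc1 differed by 0.50 ± 0.11 (SE, adjusted p = 0.0127), with 0.54, 0.68 and 0.48 on the day 4 arrays and 0.076, 0.13 and -0.029 on those of day 2. In each gene the arrays of the 2 days did not overlap.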

How the results depend on the processing

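Counts of members past the test depended on the settings. At day 2 (3 members) the count was 1 in a fit to 1 day alone and 5 with a loess curve per print block. It was 1 with no replicate block (the channels as separate samples) and 0 of 45 tested with plain background subtraction. Among probes above the median intensity it was 1 of 38 tested, and with the value table's scaling 0 of 41. Prim2 and Orc6 were not among those bright probes, and Prim2 was not tested with the value table's scaling. At day 3 (9) the count was 5 in a fit to 1 day and 1 with no replicate block. At day 4 (7) it was 14 per print block and 1 with no replicate block. Without 1 replicate the counts were 1 to 2, 2 to 5 and 4 to 7 at days 2, 3 and 4. For differences of ratios, day 3 minus day 2 (0) gave 2 per print block, 1 with the mean of a gene's probes and 0 to 1 without a replicate, and day 4 minus day 3 (0) gave 1 with the mean of probes. Day 4 minus day 2 (2) gave 4 per print block, 0 with no replicate block, 4 without spots flagged -50 (chosen after seeing the data) and 1 to 2 without a replicate. In red, day 4 minus day 2 (3) gave 0 with plain subtraction and 0 to 1 without a replicate. In green it (1) gave 3 with the mean of probes, 0 with plain subtraction and 0 without any replicate, and day 4 minus day 3 (0) gave 1 with the mean of probes. Over all gene probes, calls at days 2, 3 and 4 (503, 3072 and 2656) fell to 81, 150 and 162 with no replicate block. Of 426 refits of the 39 named calls, 288 kept direction and call, 138 kept direction only and 0 reversed. The fits to 1 day alone and with no replicate block keep the log2 of the main fit, so they could not reverse. Leaving out a replicate cannot reverse a ratio whose arrays all lie on the same side of 0. The absence of reversals is therefore no test of direction. The replicate number as a block ended the Orc1 call in red (adjusted p = 0.0801). Signal near background limits Prim2, Cdc45, Ccne2, Mcm4 and Cdc42ep1.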
